A study of Homo sapiens with 4 samples.

Results

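The genes that write, copy and remove DNA methylation, and the pair that silences DNA bound by KRAB zinc finger proteins, were measured by poly(A) RNA sequencing of H1, an established human embryonic stem cell line. In all, 10 symbols were taken by name: the DNA methyltransferases DNMT1, DNMT3A and DNMT3B with their partner DNMT3L, the dioxygenases TET1, TET2 and TET3, the maintenance cofactor UHRF1, and the corepressors TRIM28 and SETDB1. Of these symbols, 9 are among the 17472 genes of the table, and DNMT3L, which is not listed there, was not analysed here. The MEK5DD group holds 2 libraries of H1 cells that carry MEK5DD, a MAP2K5 (MEK5) coding sequence with residues changed to aspartate. This sequence was brought in by lentivirus, followed by puromycin selection. The WT group holds 2 libraries of H1 cells of the labelled genotype WT. Cells of both groups grew in E8, a defined medium with FGF2 and TGF-beta. The labels describe a single MEK5DD line, do not state separate cultures for the replicates, and include no cells given virus and puromycin without MEK5DD. Delivery, selection and the subline therefore cannot be told apart from MEK5DD, and a p-value here reflects how far these libraries scatter, which can be technical.

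Cytosine methylation in CG pairs is set on unmethylated DNA by DNMT3A and DNMT3B and copied after replication by DNMT1, which UHRF1 brings to hemimethylated sites. TET enzymes oxidise 5-methylcytosine, which starts its removal. KRAB zinc finger proteins bind mainly transposable elements and imprinted regions and recruit TRIM28 (KAP1), a scaffold that brings SETDB1 to trimethylate lysine 9 of histone H3. Pluripotent stem cells are known for high DNMT3B and TET1 and for silencing of endogenous retroviruses by TRIM28 and SETDB1.

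Recovered reads numbered 17539654 and 15756339 in the MEK5DD libraries, against 17628945 and 14908486 in the WT libraries. MAP2K5 had a normalised read count of 3382 and 3558 in MEK5DD, against 344 and 315 in WT (log2 fold change 3.40, SE 0.08, limma adjusted p = 5.91e-11); gene counts cannot separate the introduced sequence from the native transcript. The MEK5DD pair differed more than the WT pair, with a chi-square per degree of freedom of 6.09 in MEK5DD and 1.87 in WT. Of 12 pluripotent stem cell markers all were listed, and 1 was called higher and 1 lower (16.7%, beside 14.2% of all genes tested). Their summed normalised count was 153130 and 144540 in MEK5DD and 152340 and 150170 in WT. Of 10 fibroblast markers 5 were listed, with a summed count of 9225 and 8889 in MEK5DD and 7503 and 7410 in WT, most of it THY1 (6214 and 6072 in MEK5DD, 5775 and 5704 in WT), which stem cells also express. COL3A1, DCN, LUM, POSTN and ACTA2 are not listed. The collagen and actin-binding genes COL1A2 (log2 fold change 0.75), COL1A1 (0.64) and TAGLN (1.02) were higher in MEK5DD, and PDGFRB, a growth factor receptor gene, had 54.5 and 67.8 in MEK5DD and 85.4 and 74.99 in WT and did not pass (log2 fold change -0.39, adjusted p = 0.219). The part of these genes in the results on the methylation genes was not tested.

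Among the 9 listed members, DNMT1, TET2 and SETDB1 fell in MEK5DD cells and no member rose. DNMT1 was 18.8% lower and SETDB1 19.1% lower, and TET2, a minor transcript here, was 1.91-fold lower. DNMT3A lay just outside the threshold, and UHRF1, DNMT3B, TET1, TET3 and TRIM28 did not pass it. All 9 were tested, with limma on log2(normalised count + 1) over 15721 genes and a Benjamini-Hochberg adjusted p under 0.05 as the threshold, so a call rate of 33.3% stood beside 14.2% of all genes tested. By direction, 0 of 9 were higher, beside 7.69% of all genes, and 3 of 9 were lower, beside 6.47% of all genes. The groups did not overlap for 8 of the 9 members, 6 of them lower and 2 higher in MEK5DD, and for 56.2% of all genes tested. The median log2 fold change was -0.17 over the members and -0.00233 over all genes. The size of this count changed when 1 library was left out. In such a fit the scatter comes from the pair of the other group alone, and the MEK5DD pair differed more than the WT pair. A call gained or lost there, here and below, therefore reflects which pair is left as well as the effect size. Without the mean-variance trend 0 members were called, and DESeq2 on recovered reads called only DNMT1.

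**Figure D1:**
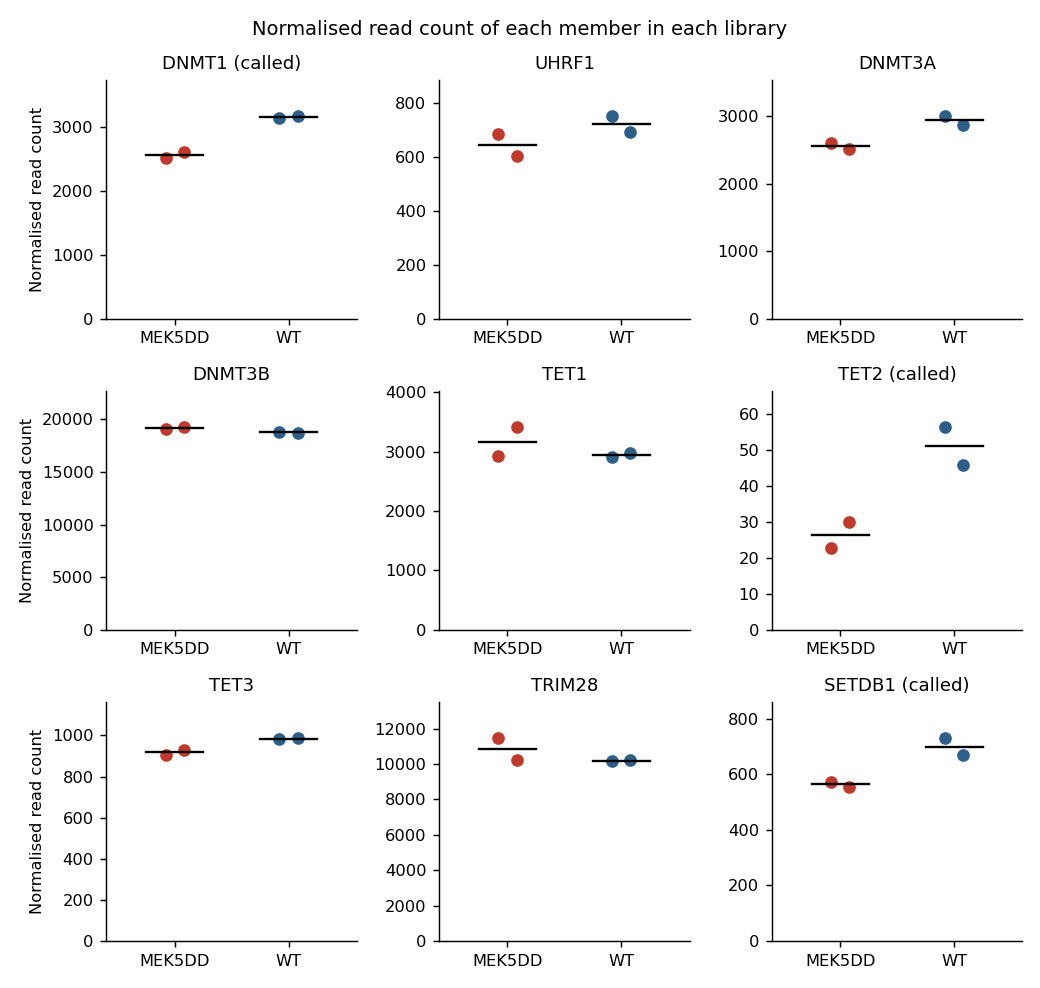
Normalised read count (vertical axis, from 0, own scale in each panel) of the 9 listed genes in the 2 MEK5DD and 2 WT libraries; points are libraries and lines group means. DNMT1, TET2 and SETDB1, the called genes, have both MEK5DD points below both WT points, and TET1 is the gene whose groups overlap.

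The promoter windows of the 3 genes that fell are shown because these genes share a direction. They come from RefSeq (GRCh38.p14), cover the 250 bases before an annotated start, and carry capitals only at matches to an E box (CACGTG). In the DNMT1 window, at chr19:10194954-10195203 on the minus strand, no such match occurs.
DNMT1: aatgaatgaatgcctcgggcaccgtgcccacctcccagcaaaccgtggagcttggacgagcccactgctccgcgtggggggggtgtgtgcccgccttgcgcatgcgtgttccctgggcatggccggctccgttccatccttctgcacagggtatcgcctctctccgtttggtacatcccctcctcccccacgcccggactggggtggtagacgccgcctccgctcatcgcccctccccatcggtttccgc
The first of 2 TET2 windows lies at chr4:105145625-105145874 on the plus strand.
TET2: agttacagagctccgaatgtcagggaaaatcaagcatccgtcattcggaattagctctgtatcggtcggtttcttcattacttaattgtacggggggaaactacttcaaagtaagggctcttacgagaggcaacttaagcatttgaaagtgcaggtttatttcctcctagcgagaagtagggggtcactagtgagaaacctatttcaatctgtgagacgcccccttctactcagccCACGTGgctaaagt
The first of 2 SETDB1 windows lies at chr1:150926013-150926262 on the plus strand and overlaps the second.
SETDB1: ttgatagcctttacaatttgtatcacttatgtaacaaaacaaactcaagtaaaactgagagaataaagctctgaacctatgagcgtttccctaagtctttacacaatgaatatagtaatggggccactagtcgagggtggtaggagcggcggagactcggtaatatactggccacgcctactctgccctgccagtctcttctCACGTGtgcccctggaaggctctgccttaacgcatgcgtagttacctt

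The DNMT1 window holds 21 CG pairs, the TET2 window 10 and the SETDB1 window 9, and the quartiles over 35116 RefSeq windows of this length are 3, 11 and 23. The second TET2 window holds 34 CG pairs and the second SETDB1 window 20, so the CG content depends on the start taken. Motifs were searched on both strands by their exact letters. The E box stands in the printed TET2 and SETDB1 windows and in 6.34% of all windows. The second TET2 window has none, and the 2 overlapping SETDB1 windows hold the same match. A GC box, GGGCGG, was found 5 times in the second TET2 window, in neither SETDB1 window nor the DNMT1 window, and in 42.6% of all windows. The ETS core CCGGAAG stands once in the second SETDB1 window and in 8.52% of all windows. The E2F-type letters TTTGGCG (1.59% of all windows) and the letters TTTCCCG (3.66%) were in none of these 5 windows. Other members have E boxes as well, in 2 of 6 windows of DNMT3A and 1 of 2 of TET3, genes that were not called. The 2 DNMT3A windows overlap and hold the same match. Matches of letters are a description, and gene-level counts do not tell which start was used. Of the 10 members 8 have a window in the RefSeq table, and TRIM28 and DNMT3L do not.

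DNMT1, the maintenance methyltransferase (chromosome 19, 10133345 to 10231286, minus strand, GRCh38), had a normalised read count of 2517 and 2600 in the MEK5DD libraries, against 3142 and 3163 in the WT libraries. Both MEK5DD libraries were below both WT libraries, and the gap between groups was several times the gap within either. The log2 fold change was -0.30 (SE 0.06, 95% interval -0.44 to -0.17, limma adjusted p = 0.00707). The direction was the same in every alternative run. The call was kept by edgeR and by DESeq2. Dropping the mean-variance trend ended it (limma adjusted p = 0.133). Without WT replicate 1 the log2 fold change was -0.306, and without WT replicate 2 it was -0.296. The call was lost in both of these fits, in which the MEK5DD pair alone set the scatter. In GENCODE v29 DNMT1 shares 83 exon bases with S1PR2, a receptor gene on the same strand, whose count was 193 and 159 in MEK5DD and 163 and 191 in WT, a small fraction of the DNMT1 count.

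UHRF1, which reads hemimethylated DNA and histone H3 and guides DNMT1 to newly copied strands, had 683 and 601 in MEK5DD, against 750 and 692 in WT. The lowest WT library lay only just above the higher MEK5DD library. Its log2 fold change was -0.17 (SE 0.09, 95% interval -0.37 to 0.03, adjusted p = 0.264), so a fall as large as that of DNMT1 lies inside its interval. Without MEK5DD replicate 1 the log2 fold change was -0.26, and the MEK5DD pair differed by 2.35 times its counting error. The count of DNMT1 per count of UHRF1 was 3.68 and 4.33 in MEK5DD and 4.19 and 4.57 in WT, groups that overlap.

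The de novo enzymes did not move alike in value. DNMT3A had 2601 and 2515 in MEK5DD, against 3004 and 2879 in WT. Both MEK5DD libraries were below both WT libraries, with a log2 fold change of -0.20 (SE 0.06, 95% interval -0.34 to -0.06) and an adjusted p of 0.0553 by limma, just short of a call. It passed with the replicate term, with upper-quartile or quantile scaling, and when the filter was a mean of 50. Its log2 fold change was -0.226 without MEK5DD replicate 1 and -0.177 without MEK5DD replicate 2. DNMT3B, the enzyme most typical of the pluripotent state, had 19115 and 19241 in MEK5DD, against 18767 and 18745 in WT. These values stood close together although the groups did not overlap, with a log2 fold change of 0.03 (SE 0.06, 95% interval -0.09 to 0.15, adjusted p = 0.760). In percent of the WT level that interval runs from -5.92% to 11.1%.

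TET1, the main TET gene of pluripotent cells, had 2929 and 3409 in MEK5DD, against 2911 and 2973 in WT. MEK5DD replicate 1 fell between the WT libraries and replicate 2 above both, which makes TET1 the only member with overlapping groups. The log2 fold change was 0.10 (SE 0.08, 95% interval -0.06 to 0.27, adjusted p = 0.418). It depended on the library used, at 0.21 without MEK5DD replicate 1 and -0.0064 without MEK5DD replicate 2. The gap between the MEK5DD libraries was 6.18 times its counting error, against 0.819 times in the WT pair.

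TET2, which lacks the DNA-binding CXXC domain that TET1 and TET3 carry, had 22.7 and 29.9 in MEK5DD, against 56.4 and 45.8 in WT. Every MEK5DD value was below every WT value, on recovered reads of 25 and 30 in MEK5DD and 64 and 44 in WT. The log2 fold change was -0.94 (SE 0.26, 95% interval -1.51 to -0.37, limma adjusted p = 0.0327), the widest interval among the members. Over the pooled reads the ratio of MEK5DD to WT was 0.507, with an exact 95% interval of 0.36 to 0.708 that covers counting error only. Dropping the trend (limma adjusted p = 0.0925) ended the call, as did DESeq2 (adjusted p = 0.157). The call was also lost without MEK5DD replicate 1 (log2 fold change -0.746) and without WT replicate 1 (-0.791). In those fits the other group's pair alone set the scatter. TET3, known for its role in the oocyte and early embryo, had 907 and 930 in MEK5DD, against 983 and 985 in WT. Its groups were separate and its log2 fold change was -0.10 (SE 0.07, 95% interval -0.26 to 0.06, adjusted p = 0.426).

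TRIM28, the scaffold that KRAB zinc finger proteins recruit, had 11447 and 10231 in MEK5DD, against 10168 and 10202 in WT. MEK5DD replicate 2 stood barely above the WT pair and replicate 1 well above it, a gap of 8.45 times the counting error within MEK5DD and 0.244 times within WT. The log2 fold change was 0.09 (SE 0.06, 95% interval -0.05 to 0.23, limma adjusted p = 0.421). It was 0.17 without MEK5DD replicate 2 and 0.00651 without MEK5DD replicate 1.

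SETDB1, the histone H3 lysine 9 methyltransferase that TRIM28 recruits (chromosome 1, 150926263 to 150964744, plus strand), had 572 and 555 in MEK5DD, against 728 and 668 in WT. Both MEK5DD libraries were below both WT libraries, with a log2 fold change of -0.31 (SE 0.09, 95% interval -0.50 to -0.12, limma adjusted p = 0.0341). Dropping the trend (limma adjusted p = 0.160) ended this call, as did DESeq2 (adjusted p = 0.106). The call was also lost without WT replicate 1 (log2 fold change -0.244) and without WT replicate 2 (-0.369). In those fits the MEK5DD pair alone set the scatter. SETDB1 shares 948 exon bases with CERS2, a ceramide synthase gene on the opposite strand, and no source used here gives the strand setting of the counting. CERS2 had 1602 and 1433 in MEK5DD and 1635 and 1597 in WT (log2 fold change -0.09, SE 0.08, adjusted p = 0.469), and reads of the shared bases cannot be assigned between these genes here.

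**Figure D2:**
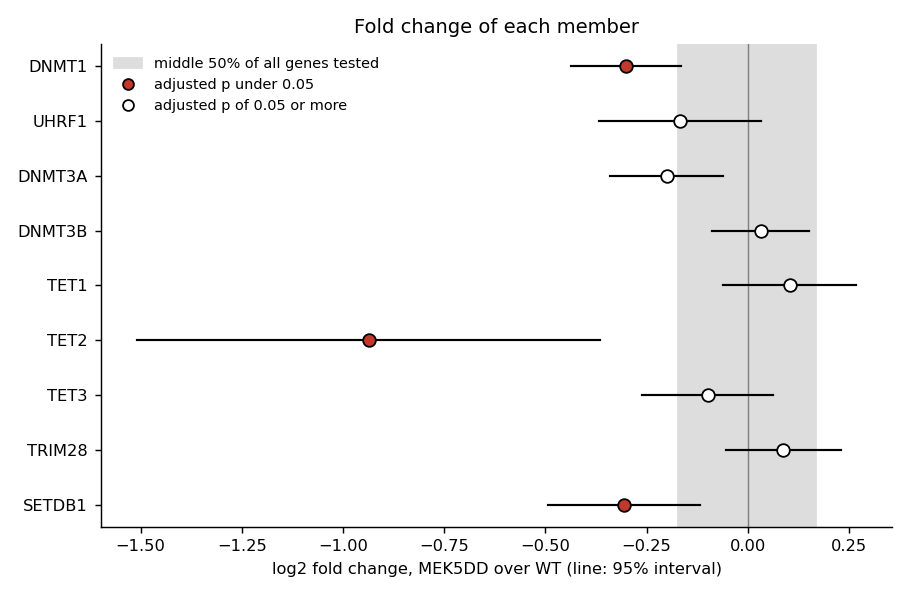
Log2 fold change (horizontal axis, MEK5DD over WT) of each listed gene with its 95% interval from limma; filled points passed an adjusted p of 0.05 and the grey band holds the middle 50% of all genes tested. DNMT1, TET2 and SETDB1 lie left of the band at -0.30, -0.94 and -0.31, and DNMT3B lies near 0.

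Within each group the libraries were not equally close. In the WT pair no member differed by more than 1.67 times its counting error (DNMT3A), whereas TET1, TRIM28 and UHRF1 exceeded 2 in the MEK5DD pair. DNMT1, DNMT3B, TET2, TET3 and SETDB1 stayed within 1.19 times in the MEK5DD pair. In log2 units the widest gap within MEK5DD was that of TET2 (0.40), whose counting error was 0.39, followed by TET1 (0.22), UHRF1 (0.19) and TRIM28 (0.16).

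**Figure D3:**
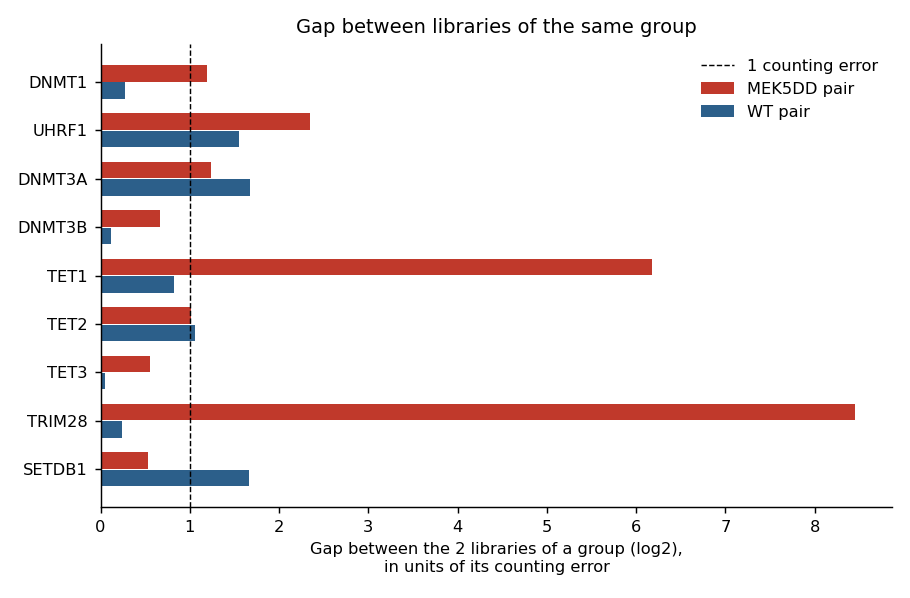
Absolute log2 gap between the 2 libraries of each group, divided by the counting error of that gap (horizontal axis, no unit), for each listed gene. TET1 (6.18) and TRIM28 (8.45) stand far out in the MEK5DD pair, and every WT bar ends at or below 1.67.

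Levels between genes were compared as normalised count per kilobase of merged exons. DNMT3B was the most abundant member, at a mean of 4140 per kilobase in MEK5DD and 4050 in WT, which placed it at rank 96 of the 17083 genes with a length in WT. TRIM28 came next with 2690 in MEK5DD and 2520 in WT. A wide step led to TET1 (341 in MEK5DD, 317 in WT), DNMT1 (261 in MEK5DD, 322 in WT) and DNMT3A (213 in MEK5DD, 245 in WT), followed by UHRF1 (125 in MEK5DD, 140 in WT). SETDB1 (79.5 in MEK5DD, 98.4 in WT) and TET3 (74.8 in MEK5DD, 80.2 in WT) were lower. TET2 came last with 1.38 and 1.82 in MEK5DD and 3.42 and 2.78 in WT, the percentile 7.98 of the genes with a length in WT. Over the 4 libraries the values of DNMT1 and TET1 overlapped, as did those of SETDB1 and TET3, and the other neighbours in the order were separate. With the longest coding transcript as the length the WT order was the same, but in MEK5DD DNMT1 (473) was then above TET1 (341), so the order of these 2 genes depends on the length used.

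On the same per-kilobase scale, DNMT3B made up 89.7% of the summed level of DNMT1, DNMT3A and DNMT3B in each MEK5DD library, against 87.7% and 87.8% in the WT libraries. TET1 made up 80.7% and 82.5% of the TET sum in MEK5DD and 79.0% and 79.4% in WT, and TET3 held 18.9% and 17.0% in MEK5DD and 20.2% and 19.9% in WT. The share of TET2 was 0.353% and 0.408% in MEK5DD and 0.862% and 0.690% in WT. In both groups, therefore, 1 gene accounted for most of each family's summed transcript level.

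Between members, 7 ratios of normalised counts were formed after their values were seen; gene length enters their size, so only their difference between groups is read. DNMT3B over DNMT1 was 7.59 and 7.40 in MEK5DD, against 5.97 and 5.93 in WT, 26.0% higher. TRIM28 over SETDB1 averaged 19.2 ± 1.11 in MEK5DD and 14.6 ± 0.935 in WT (SD, n = 2 each). TET1 over DNMT1 was 1.16 and 1.31 in MEK5DD, against 0.927 and 0.940 in WT. Groups were separate for 6 of the 7 ratios, DNMT1 over UHRF1 being the exception. With 2 libraries a group the two-sided exact permutation p of 0.333 for each of those 6 is the smallest the design allows (0.389 adjusted over the 7), and no other test was run on the ratios.

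The genes whose pattern over the 4 libraries was most like that of TET2, the called member with the largest change, were sought over 10787 genes whose mean reached 100, by Euclidean distance of centred log2 values. They were CACNG8 (distance 0.10), a calcium channel gamma subunit gene with 68.2 and 90.7 in MEK5DD and 158.5 and 142 in WT, SLC16A9 (0.15), a solute carrier gene with 64.5 and 88.7 in MEK5DD and 160 and 147 in WT, and RNF150 (0.16), a RING finger gene with 104.5 and 124 in MEK5DD and 238 and 218 in WT. In each of the 4 genes MEK5DD replicate 1 was the lowest library. Genes picked for likeness to TET2 tend to share its order of libraries, so this is no separate result. The gap of TET2 within MEK5DD was 1.01 times its counting error.

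Partners of these enzymes moved in both directions. Of 16 genes that bind the DNA methyltransferases or steer them and the TET enzymes to chromatin, 2 rose and 4 fell, with a median log2 fold change of -0.15. The share called was 37.5%, beside 14.2% of all genes tested. MYC, a transcription factor that can recruit DNMT3A, had 1708 and 1543 in MEK5DD, against 1183 and 1177 in WT (log2 fold change 0.46, SE 0.08), and CXXC5, a CXXC-domain gene linked to TET2, had a log2 fold change of 0.29. QSER1, which limits de novo methylation at developmental promoters in human embryonic stem cells, had 2676 and 3316 in MEK5DD, against 3727 and 3999 in WT (-0.37, SE 0.09), and its log2 fold change was -0.22 without MEK5DD replicate 1. NSD1, which writes the H3 lysine 36 dimethylation that DNMT3A reads, had a log2 fold change of -0.30. CDCA7, which acts with the remodeller HELLS in DNA methylation (-0.26), and the H3 lysine 9 methyltransferase gene EHMT2 (-0.28) were the other falls. HELLS (adjusted p = 0.189), PCNA (0.774) and USP7 (0.818) were among the 10 that did not pass. The call of MYC was kept with each library left out. With WT replicate 1 dropped, the adjusted p was 0.234 for CXXC5, 0.132 for NSD1, 0.331 for CDCA7 and 0.106 for EHMT2. With WT replicate 2 dropped, it was 0.110 for CXXC5, 0.125 for NSD1, 0.188 for CDCA7, 0.352 for EHMT2 and 0.0977 for QSER1.

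None of the 9 readers of methylated DNA was called, beside 14.2% of all genes tested. They include MBD1, MBD2, MBD3 and UHRF2, and their median log2 fold change was -0.05. Of 16 genes of TET cofactors and base excision, which remove oxidised bases, 3 rose and none fell, with a median of -0.09. The share called, 18.8%, is near that of all genes, so it is no result about this group. GADD45B, a stress gene linked to active demethylation, had 190 and 184 in MEK5DD, against 109 and 96.9 in WT (log2 fold change 0.86, SE 0.14), a call kept with each library left out. IDH1, which makes the TET co-substrate 2-oxoglutarate, had 11045 and 10342 in MEK5DD, against 8720 and 8386 in WT (0.32, SE 0.06), and GADD45A had a log2 fold change of 0.40. GADD45G went the other way, with 21.8 and 24.9 in MEK5DD and 34.4 and 57.3 in WT. It did not pass (log2 fold change -0.90, limma adjusted p = 0.0654). With WT replicate 1 dropped, neither IDH1 (adjusted p = 0.0510) nor GADD45A (0.0623) passed, and with WT replicate 2 dropped the values were 0.134 for IDH1 and 0.313 for GADD45A. TDG, the glycosylase that excises the oxidised bases TET enzymes make, had 1044 and 1061 in MEK5DD, against 1269 and 1162 in WT, and did not pass (adjusted p = 0.0950).

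In the methyl donor cycle 2 of 10 genes fell and none rose, with a median of -0.09. MAT2A, which makes S-adenosylmethionine, the methyl donor of the DNA methyltransferases and SETDB1, had 1606 and 1736 in MEK5DD, against 2317 and 2309 in WT (log2 fold change -0.47, SE 0.07, limma adjusted p = 0.000788), kept with each library left out. GNMT, BHMT2 and NNMT are not listed in the table.

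Around TRIM28 and SETDB1, 1 of 25 genes of the corepressor complex and heterochromatin rose and 3 fell, with a median of -0.03. The share called, 16.0%, is near the 14.2% of all genes, so it is no result about this group. CHD3, a subunit of the NuRD remodelling complex that TRIM28 binds, had 1537 and 1708 in MEK5DD, against 2150 and 2134 in WT (log2 fold change -0.40, SE 0.07), kept with each library left out. CBX5, which encodes heterochromatin protein HP1 alpha, had 6857 and 7942 in MEK5DD and 9075 and 8984 in WT (-0.29, SE 0.07; -0.19 without MEK5DD replicate 1). MORC2, an ATPase gene of the HUSH silencing pathway, had a log2 fold change of -0.25. With WT replicate 1 dropped, the adjusted p was 0.152 for CBX5 and 0.438 for MORC2. With WT replicate 2 dropped, it was 0.126 for CBX5 and 0.253 for MORC2. ATF7IP, the stabilising partner of SETDB1, did not pass, with 3744 and 4618 in MEK5DD and 4019 and 4100 in WT.

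Genes known to depend on DNA methylation or on KRAB zinc finger silencing were counted next. Of 6 zinc finger genes linked to imprinted regions, ZFP57 rose and the others did not pass. ZFP57, a KRAB protein that keeps methylation at imprints, was near the floor, with 16 and 29 recovered reads in MEK5DD and 3 and 4 in WT, a pooled ratio of 6.4 (exact interval 2.87 to 16.8, counting error only). It passed the filter on low values only through the MEK5DD libraries, where it is high, so its call is no support for the list. Of 24 imprinted genes tested, 3 rose and 3 fell, with a median of -0.04. The share called was above the 14.2% of all genes, and this excess was not tested. PHLDA2, a growth-restraining gene of the placenta, had 120 and 119 in MEK5DD, against 58.1 and 59.4 in WT (log2 fold change 1.01, SE 0.17), and MAGEL2 had 222 and 200 in MEK5DD, against 123 and 123 in WT (0.77, SE 0.13). ZDBF2 had 290 and 427 in MEK5DD, against 494 and 513 in WT (-0.52, SE 0.15), a call that dropping MEK5DD replicate 1 ended (-0.24, adjusted p = 0.0544); without MEK5DD replicate 2 it was -0.80. BLCAP had a log2 fold change of 0.34, a call that dropping WT replicate 2 ended (adjusted p = 0.274). PEG10 (-0.22) and GRB10 (-0.25) were the other falls. Their adjusted p with WT replicate 1 dropped was 0.324 for PEG10 and 0.304 for GRB10, and with WT replicate 2 dropped 0.376 for PEG10 and 0.260 for GRB10.

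Of 20 germline genes that promoter methylation silences in somatic cells, 6 were tested, 2 rose and none fell. TDRD1, a piRNA pathway gene, had 47 and 32 recovered reads in MEK5DD and 7 and 4 in WT, a pooled ratio of 7.15 (exact interval 3.79 to 14.9). MAEL, of the same pathway, had 23 and 27 reads in MEK5DD and 5 and 5 in WT (ratio 4.98, 2.50 to 11.0). DAZL, TEX11 and TEX14 did not pass. A member that passed the filter only through its higher group had to differ, so the share of 33.3% called is not set against the 14.2% of all genes. Methylation itself was not measured in these libraries. Genes with ZNF symbols were taken by symbol alone, without a check for a KRAB domain, and include antisense genes. Of 488 tested, 19 rose and 18 fell, with a median of 0.00279. The share called was 7.58%, beside 14.2% of all genes tested. ZNF521 (-1.23), ZNF280B (-1.24) and ZNF385D (-1.38) fell in every fit with a library left out, and ZNF385D-AS1 rose (1.82), although this antisense gene and ZNF385D may share reads because the strand of counting is not given.

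DNMT1 and UHRF1 are transcribed most in S phase, and replication genes were therefore set beside them. Of 23 such genes none rose and 5 fell, with a median log2 fold change of -0.16. The share called was 21.7%, beside 14.2% of all genes tested. Their summed normalised count was 59991 and 61315 in MEK5DD, against 67312 and 68017 in WT. E2F2, a transcription factor of S phase entry, had 81.8 and 85.7 in MEK5DD, against 152 and 143 in WT (log2 fold change -0.81, SE 0.15). MCM2 (-0.35), MCM3 (-0.22) and MKI67 (-0.37) fell as well. The log2 fold change of MKI67 was -0.18 without MEK5DD replicate 1 and -0.56 without MEK5DD replicate 2. With WT replicate 1 dropped, the adjusted p was 0.0891 for MCM2 and 0.335 for MCM3, and with WT replicate 2 dropped it was 0.0523 for MCM2 and 0.367 for MCM3. DNMT1 had a log2 fold change of -0.30, beside the median of -0.16 over the 23 genes. The part of cell cycle stage in the DNMT1 result was not tested. Of 14 markers of early differentiation, 9 were listed and 6 tested, at summed counts of 313 and 340 in MEK5DD and 233 and 250 in WT. MIXL1 (0.98), GATA4 (1.64) and GATA3 (1.73) were called higher and SOX1 lower (-2.41). EOMES (1.19, limma adjusted p = 0.0693) and GATA2 (-0.17, limma adjusted p = 0.641) did not pass. Of the 6 genes tested, 4 were below the filter value of 10 in at least 1 library, GATA4, GATA3 and SOX1 among them; these passed it through the group where they are high, and no share is read from this list. The adjusted p of GATA4 was 0.202 with WT replicate 1 dropped, 0.0790 with WT replicate 2 dropped and 0.110 with MEK5DD replicate 1 dropped. In bulk RNA fewer cells of a type and less RNA per cell cannot be told apart.

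**Figure D4:**
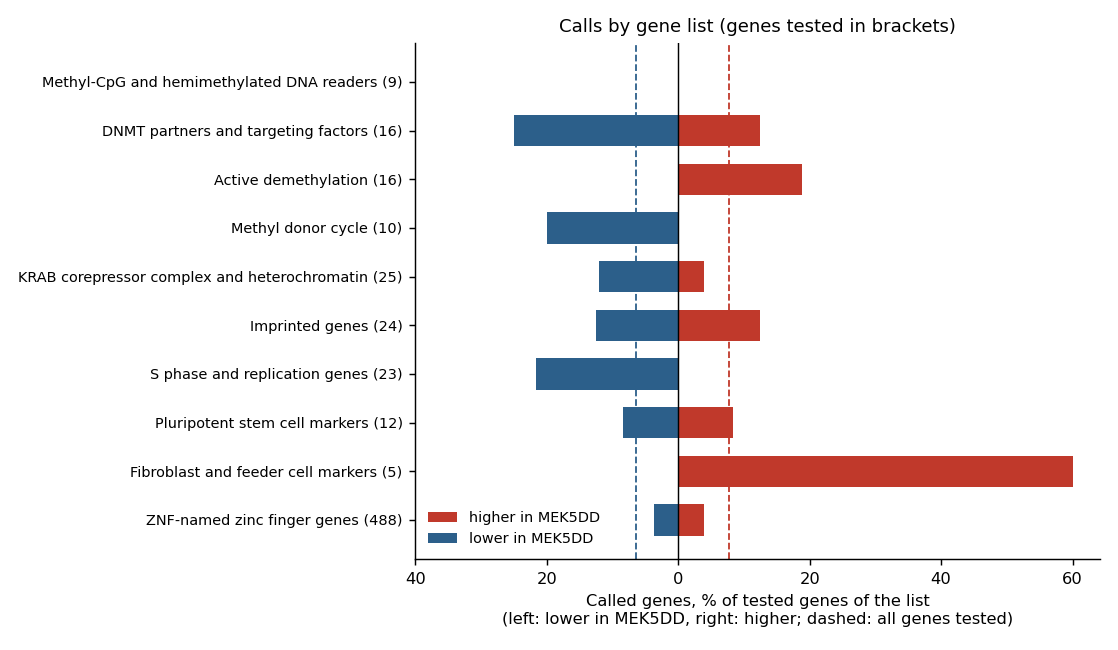
Share of each list's tested genes (number in brackets) called higher (right, red) or lower (left, blue) in MEK5DD, in percent; dashed lines give 7.69% and 6.47% for all genes tested, and the 3 lists with a called gene below 10 in some library are left out. Readers have no bar, and S phase genes and the methyl donor cycle have bars to the left alone.

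The called list genes, with the 4 named ZNF genes, numbered 42. With the trend left out 29 of them lost the call, as all 3 members did, and the 13 that kept it were E2F2, GADD45B, PHLDA2, MAGEL2, TDRD1, MAEL, COL1A2, TAGLN, SOX1, GATA4, ZNF280B, ZNF385D and ZNF521. With WT replicate 1 dropped the loss was 17 of 42, and with WT replicate 2 dropped 19 of 42. DESeq2 ended 8 of the 39 calls it could test (among them those of GADD45A, MORC2, PEG10, MCM3, MKI67 and SOX2), and edgeR kept all 42.

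**Figure D5:**
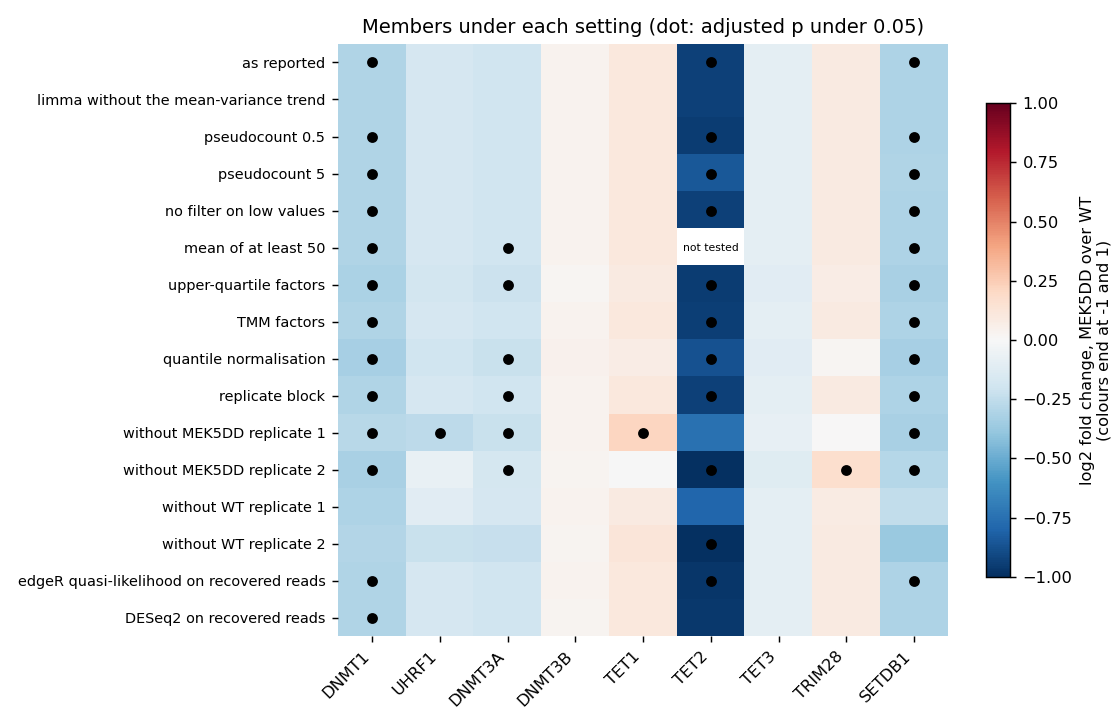
Log2 fold change of each listed gene (columns, colour, MEK5DD over WT) under each processing setting (rows), with a dot where the adjusted p was under 0.05. DNMT1, TET2 and SETDB1 stay blue in each row where they were tested, while TET1 turns from 0.21 without MEK5DD replicate 1 to -0.0064 without MEK5DD replicate 2.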

How the data were processed

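Per the labels' protocols, poly(A) RNA of H1 cells was read in paired ends on a NextSeq 500. The deposited values are a signal, gene counts that the authors normalised with 1 size factor per library, as inferred from the values: each is a whole multiple of its library's smallest value, within 0.001, for 100% of genes, which gave recovered reads. For MEK5DD replicate 2 this value (0.997) lies too near 1 for an independent check of the recovery. Tools named in the submitters' processing notes are STAR, DESeq2 1.26.0, featureCounts 1.5.3 and Trimmomatic 0.36, with build hg38. No source used here gives the annotation or the strand setting. Every listed gene has at least 1 read in each library.

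Lengths, loci and overlaps came from GENCODE v29 (17083 symbols, 97.8%), and 4 list genes were matched through older names. The test was limma 3.58.1 (R 4.3.3) with a mean-variance trend on log2(value + 1), which understates changes of low genes, over 15721 genes with at least 10 in at least 2 libraries, two-sided, adjusted by Benjamini and Hochberg's method. Counting errors and exact intervals assume independent reads and cover counting error only. Alternatives were other pseudocounts, filters and scalings, a replicate term, each library left out, edgeR 4.0.16 (quasi-likelihood) and DESeq2 1.42.0.

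The members and gene lists were chosen with earlier results of these data known. From each list the up to 4 called genes of largest absolute change are named. CDCA7, EHMT2, PEG10, GRB10, MCM3, THY1, PDGFRB, HELLS, PCNA, USP7, TDG, GADD45G, ATF7IP, DAZL, TEX11, TEX14, EOMES and GATA2, the overlapping genes CERS2 and S1PR2, and the readers were added after their values were seen. Some genes that this rule takes are counted with their lists and not reported by name.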

Additional observations from a re-analysis of the deposited data

How the results depend on the processing

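Of 15 alternative settings, none changed the direction of DNMT1, UHRF1, DNMT3A, DNMT3B, TET2, TET3, TRIM28 or SETDB1 where these were tested, and TET1 reversed in 1 (-0.0064 without MEK5DD replicate 2). Without the mean-variance trend 439 genes and 0 members were called, with DNMT1 at -0.30 (adjusted p = 0.133), TET2 at -0.94 (adjusted p = 0.0925) and SETDB1 at -0.31 (adjusted p = 0.160). DESeq2 called 1358 genes and 1 member, with TET2 at -0.965 (adjusted p = 0.157) and SETDB1 at -0.310 (adjusted p = 0.106). DNMT3A passed at a mean of at least 50 (-0.201, adjusted p = 0.0488), with upper-quartile factors (-0.217, adjusted p = 0.0411) and after quantile normalisation (-0.219, adjusted p = 0.0344). Leaving out 1 library gave 1160 to 4629 genes and 0 to 5 members called, with DNMT1 from -0.325 to -0.278, UHRF1 from -0.260 to -0.0753, DNMT3A from -0.232 to -0.171, TET1 from -0.0064 to 0.213, TET2 from -1.13 to -0.746, TRIM28 from 0.00651 to 0.169 and SETDB1 from -0.369 to -0.244. The cause of these shifts was not tested. A lone library in a group was assumed to vary like the other group, so the calls of such a fit depend on which pair is left.

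Labels share replicate numbers across groups, but deviations of same-numbered libraries hardly went together (Pearson's r = 0.0469 across 15721 genes). A single value over all genes cannot tell whether same-numbered libraries shared a batch or culture. With the replicate block 3349 genes were called, and DNMT3A passed (-0.201, adjusted p = 0.0159). TET2 was not tested at a mean of at least 50. At 25 to 64 reads per library, depth limits TET2 more than any other member.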
